A study of Mus musculus with 21 samples.

Results

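Haploid embryonic stem cell lines, 3 in number, were compared with a diploid embryonic stem cell line of the same genetic background. Androgenetic haploid embryonic stem (ahES) cells derive from embryos whose only chromosome set came from a sperm, so they carry a single copy of each autosome and a single X chromosome. The lines AH129-5, AH129-N1 and AH129-NC1 were measured on 3 arrays each, and the diploid line CS1-1 on 3 arrays, which makes 12 of the 21 arrays of the series. Arrays were included by their cell line label alone, and the diploid line R1 was not part of the comparison. Per the labels all 4 lines were 129 Sv, were grown in N2B27 medium with the 2i inhibitors and LIF, and were sampled as biological replicates whose source was not stated. Flow cytometry had been used to select haploid ahES cells in G0/G1, while the labels mention no such selection of CS1-1, so ploidy, paternal origin and sorting cannot be told apart in this comparison. Neither the sex of CS1-1 nor its derivation was given in the labels, and the diploid state was represented by that line alone.

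In mammals the X chromosome is present in 1 copy in males, while females carry a pair, one of which is silenced in somatic cells through the noncoding RNA Xist. In a haploid cell the single X stands beside 1 set of autosomes, and in a diploid male cell beside a pair of sets. In a diploid female cell a pair of X chromosomes stands beside a pair of sets. Other sets of sex chromosomes are possible, and which set CS1-1 carries was not tested. Its levels of Y-linked genes are given below. Mouse ES cells in 2i medium resemble the naive epiblast and depend on Pou5f1, Nanog and Sox2. Imprinted genes are expressed from only the maternal or only the paternal chromosome, and androgenetic cells inherit only the paternal one.

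Values are log2 of the MAS5 signal plus an offset of 9.69 signal units, and all differences are ahES minus CS1-1 on that scale. The unit of the test was the line, with 3 ahES line means against 1 CS1-1 mean (limma, residual df of 2, moderated over all genes). The spread of CS1-1 between lines was thus assumed to equal that of the ahES lines. Of 18193 genes on the array with a single symbol, 12749 were tested, and passing required an adjusted p (Benjamini-Hochberg) under 0.05 together with at least a 2-fold difference. In all, 697 genes passed, which is 5.47% of those tested, 470 of them higher in ahES cells (3.69%) and 227 lower (1.78%). In every one of the 697 the 9 ahES arrays lay wholly on one side of the 3 CS1-1 arrays. Over all genes tested the ahES arrays lay above CS1-1 for 16.1% and below it for 20.4%, and the median difference was -0.0355. Arrays of 1 line correlated with a mean Pearson r of 0.987 across genes, arrays of different ahES lines with 0.969, and ahES with CS1-1 arrays with 0.932. Every array was nearest to an array of its own line. The 3' minus 5' log2 difference of the Actb control probe sets was 0.448 to 0.627, and that of Gapdh -0.346 to -0.0922, over the 12 arrays.

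No core pluripotency gene passed the test, and the arrays of haploid and diploid cells overlapped for most of them. Pou5f1, the POU-domain factor that maintains the ES cell state, read 13.51, 13.63 and 13.74 (lowest, median and highest of the 9 ahES arrays) against 13.63, 13.62 and 13.64 in CS1-1. Its difference was 0.01 ± 0.13 (SE, limma adjusted p = 0.97). Nanog differed by -0.11 ± 0.14 (adjusted p = 0.70), Sox2 by 0.01 ± 0.18 (adjusted p = 0.99) and Zfp42, a marker of the naive state also called Rex1, by 0.35 ± 0.25 (adjusted p = 0.47). The arrays of the lines overlapped for all 4 of these genes. Klf4 lay lower in all 9 ahES arrays, with a difference of -0.46 ± 0.15 that did not pass (adjusted p = 0.11). None of the 28 pluripotency genes tested passed in either direction (limma), and their median difference was -0.0959. Tdgf1, a Nodal co-receptor, was the one member with an adjusted p under 0.05, at -0.78 ± 0.19 (adjusted p = 0.048), which is under 2-fold. Dppa3, a maternal factor that protects imprints, differed among the ahES lines and read 1.00 and 1.65 above CS1-1 in AH129-5 and AH129-N1 and -0.73 relative to it in AH129-NC1.

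The X chromosome stood apart from every autosome. Of 450 X-linked genes tested 151 rose (33.6%) and 0 fell, whereas of 12251 autosomal genes 318 rose (2.6%) and 227 fell (1.85%). Without AH129-N1, 95 of 445 X-linked genes rose (21.3%), without trend and robust moderation 80 (17.8%), and with every array as a unit 207 (46%). At an unadjusted limma p under 0.05, 318 X-linked genes were higher and 3 lower. The median difference of X-linked genes was 0.942, with quartiles of 0.565 and 1.48, and the autosomal median was -0.0528, with quartiles of -0.38 and 0.277. The gap between the medians was 0.995, a factor of 1.99. It measured 0.989 in AH129-5, 1.02 in AH129-N1 and 1.04 in AH129-NC1, so the 3 lines differed from each other by far less than each did from CS1-1. An exact permutation over the 4 lines gave p = 0.25, the smallest that 3 lines against 1 allow. Among autosomes the medians ran from -0.174 on chromosome 17 to 0.0214 on chromosome 1.

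**Figure D1:**
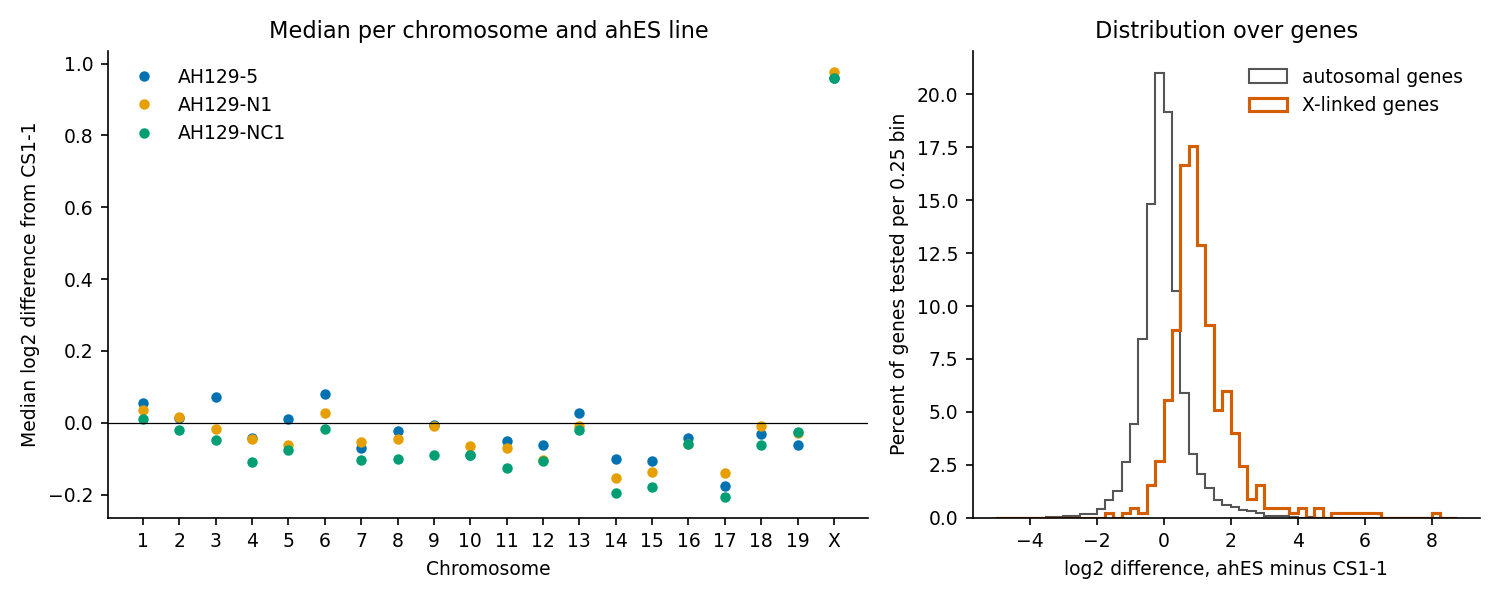
Left, the median log2 difference from CS1-1 of the genes tested on each chromosome, one point per ahES line. Right, the distribution of the mean log2 difference over 12251 autosomal and 450 X-linked genes in bins 0.25 wide, as a percentage of each set. All 3 lines have their X median between 0.96 and 0.98 and every autosomal median between -0.21 and 0.08, and the X-linked distribution is shifted to the right as a whole.

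The shift was spread over the chromosome and over expression levels. The difference was above 0 in 94.7% of X-linked and 45.5% of autosomal genes, and 56.2% lay between 0.5 and 1.5, against 12.4% of autosomal genes. With the X-linked genes ordered along the chromosome in 10 bins of 45, the lowest median was 0.642, in the bin from Bgn to Fthl17a, and the highest was 1.59, in the bin from Mospd1 to Haus7, where 30 of 45 genes rose. With the X-linked genes in 3 classes of 150 by expression level, the gap to autosomal genes of the same range was 1.07 in the lowest, 1.12 in the middle and 0.924 in the highest class. Without the 58 X-linked genes whose difference exceeded 2, a choice made after seeing the data, the gap was 0.932. The opposite pattern was rare. In 24 X-linked genes the difference was below 0, the lowest being Car5b, a mitochondrial carbonic anhydrase, at -1.51 ± 0.48 (adjusted p = 0.11), Mid1 at -1.02 ± 0.42 (adjusted p = 0.19) and the deubiquitinase Usp11 at -0.97 ± 0.37 (adjusted p = 0.17), named here after their values were seen. Nr0b1, an X-linked member of the pluripotency network, read -0.07 ± 0.17 (adjusted p = 0.86), and the ribosomal protein gene Rps4x -0.07 ± 0.10 (adjusted p = 0.74).

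A smaller set of X-linked genes rose far beyond this general shift. Gm364 read 13.47, 13.87 and 14.09 (lowest, median and highest of 9 ahES arrays) against 5.68, 5.70 and 6.17 in CS1-1. Every CS1-1 array was just above background and every ahES array far above it, with a difference of 8.01 ± 0.20 (limma adjusted p = 7.03e-07). Magea5 read 10.70, 11.16 and 11.89 against 5.27, 3.80 and 5.31, a rise of at least 55.6-fold (difference 6.44 ± 0.40, adjusted p = 0.000424). Here and below, a fold is given as a lower bound where one side lay at or under the 40th percentile of its arrays (near background, 5.51 for ahES and 5.44 for CS1-1), and that percentile replaced the lower values. MAGE genes encode a family of proteins normally made in male germ cells and many tumours. Magea4 rose at least 24.4-fold (5.82 ± 0.34, adjusted p = 0.000131) and Magea6 at least 7.03-fold (4.72 ± 0.54, adjusted p = 0.00354). The members of this family are similar in sequence, so their probe sets could share target RNA. 1700013H16Rik read 11.39, 12.12 and 12.63 against 5.78, 6.17 and 5.84 (6.11 ± 0.36, adjusted p = 0.000381). Nxf3, a relative of the mRNA export factor Nxf1, rose at least 28.4-fold (5.53 ± 0.31, adjusted p = 0.000131). Scml2, a germline Polycomb protein, read 9.63, 9.90 and 10.16 against 3.91, 4.40 and 4.99, and Efhc2, an EF-hand protein, 11.73, 11.85 and 12.59 against 6.85, 6.95 and 7.14. Their differences were 5.45 ± 0.30 (adjusted p = 0.000131) and 5.08 ± 0.33 (adjusted p = 0.000424), and with the probe set brightest over all 21 arrays Scml2 read 3.44. In all 8 genes every ahES array lay far above every CS1-1 array.

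**Figure D2:**
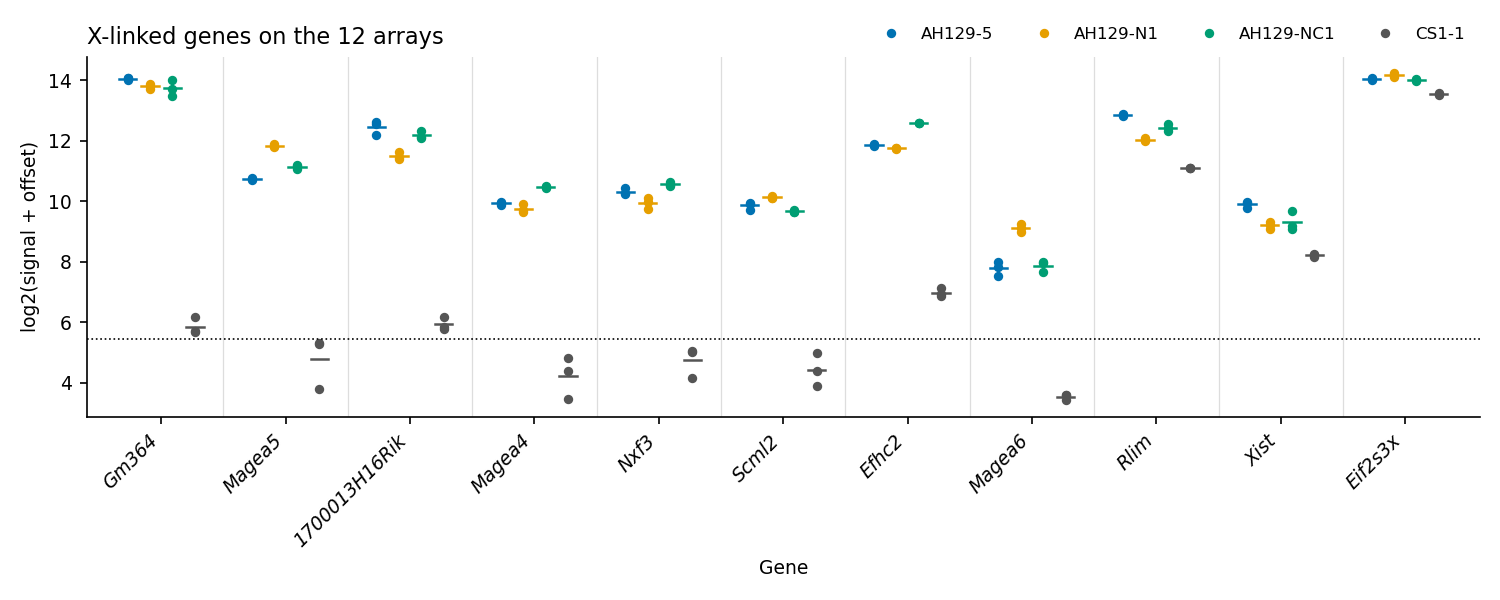
log2(signal + offset) of 11 X-linked genes on each of the 12 arrays. Points are arrays, short bars the mean of each line, and the dotted line is the background level of CS1-1 (5.44). The first 8 genes are the largest X-linked rises, with CS1-1 near or below 7 in each, while Rlim, Xist and Eif2s3x show separations of 0.52 to 1.35.

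Because these genes moved together, the promoters of 5 of them are shown, as 250 bases before to 50 after the RefSeq start in GRCm38.p6, with each CG dinucleotide, the site of DNA methylation in mammals, in capitals. Gm364 (chrX:57408899-57409198, plus strand), 1700013H16Rik (chrX:53757782-53758081, minus), Scml2 (chrX:161162500-161162799, plus), Magea4 (chrX:72221767-72222066, plus) and Magea5 (chrX:155061504-155061803, minus) read 5′ to 3′ as follows.
Gm364: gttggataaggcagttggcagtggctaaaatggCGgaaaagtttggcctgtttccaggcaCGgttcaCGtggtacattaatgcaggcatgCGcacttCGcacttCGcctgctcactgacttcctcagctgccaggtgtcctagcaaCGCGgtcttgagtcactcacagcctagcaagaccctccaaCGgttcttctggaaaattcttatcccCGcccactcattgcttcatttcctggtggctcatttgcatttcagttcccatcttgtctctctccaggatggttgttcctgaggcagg
1700013H16Rik: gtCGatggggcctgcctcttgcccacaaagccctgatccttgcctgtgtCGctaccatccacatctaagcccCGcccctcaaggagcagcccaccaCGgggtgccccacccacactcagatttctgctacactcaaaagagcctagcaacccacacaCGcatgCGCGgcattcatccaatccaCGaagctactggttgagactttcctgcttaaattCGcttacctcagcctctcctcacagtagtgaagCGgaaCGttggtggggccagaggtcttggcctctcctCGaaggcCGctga
Scml2: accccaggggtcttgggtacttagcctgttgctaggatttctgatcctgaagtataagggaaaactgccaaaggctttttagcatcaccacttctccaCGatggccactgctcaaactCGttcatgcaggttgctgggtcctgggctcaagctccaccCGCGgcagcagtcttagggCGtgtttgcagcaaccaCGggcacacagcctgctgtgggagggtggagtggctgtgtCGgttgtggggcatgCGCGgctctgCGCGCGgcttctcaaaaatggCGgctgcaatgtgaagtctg
Magea4: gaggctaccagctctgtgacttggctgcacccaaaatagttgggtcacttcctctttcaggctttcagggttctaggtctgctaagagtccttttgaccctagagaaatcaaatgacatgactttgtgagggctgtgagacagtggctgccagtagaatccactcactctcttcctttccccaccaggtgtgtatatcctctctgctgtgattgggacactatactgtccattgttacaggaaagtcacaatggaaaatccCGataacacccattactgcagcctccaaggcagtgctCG
Magea5: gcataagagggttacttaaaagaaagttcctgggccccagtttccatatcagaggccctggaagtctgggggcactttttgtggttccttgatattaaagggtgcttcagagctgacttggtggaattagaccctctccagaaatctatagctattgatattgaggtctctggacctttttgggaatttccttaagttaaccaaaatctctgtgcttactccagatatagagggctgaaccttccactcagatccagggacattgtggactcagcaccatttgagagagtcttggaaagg
Gm364 held 10 CG, 1700013H16Rik and Scml2 13 each, Magea4 2 and Magea5 0. The motif reads the same on both strands and was present in 94.2% of the 27025 genes' promoters in the table. Their median was 7 CG per promoter. The median was 9 over the 45 X-linked genes that rose by more than 2 and had a promoter in the table (of 53), 12.5 over 130 of the 151 X-linked genes that rose, and 15 over 262 of the other 299 X-linked genes tested. It was 13 over 236 of the 319 genes that rose outside the X, 18.5 over 184 of the 227 that fell, and 20 over 10294 of the 12749 tested. These counts describe the sequences, and methylation was not measured on these arrays.

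Many germline and reproductive genes of the X rose. Of 12 tested X-linked MAGE and other cancer-testis genes, 11 rose and 0 fell, with a median of 1.80. All 12 are X-linked, and over all X-linked genes the median was 0.942 and 33.6% rose. Beside the 4 genes above they included Xlr4c (2.89 ± 0.38, adjusted p = 0.00498), Mageh1 (1.88 ± 0.24, adjusted p = 0.0047) and Maged1 (1.47 ± 0.21, adjusted p = 0.00667). In the alternatives between 7 and 12 of the list rose. Of the 12, 4 were near background in CS1-1 and 0 in ahES cells. Those 4 entered the test through ahES arrays alone, so their direction was set by the filter. Of 4 Rhox genes, an X-linked cluster of homeobox genes of the reproductive tract, 3 rose: Rhox9 by at least 8.78-fold (3.56 ± 0.39, adjusted p = 0.00256), Rhox6 by 2.78 ± 0.48 (adjusted p = 0.0175) and Rhox13 by 2.77 ± 0.50 (adjusted p = 0.0291). Rhox6 and Rhox13 differed among the ahES lines and were highest in AH129-5, at 3.49 and 3.54, and neither passed without AH129-N1 (adjusted p = 0.0634 and 0.102). Rhox9 was near background in CS1-1, so it too entered the test through ahES arrays alone. Among 21 germline genes known to be silenced by promoter methylation 7 rose and 1 fell (38.1% called, against 5.47% of all genes tested), and the median was 0.633. In the alternatives 2 to 8 rose. Of the 21, 6 are X-linked, and 4 were near background in CS1-1 and 1 in ahES cells. Those 4 entered the test through ahES arrays alone, so the filter favoured a rise. The X-linked members that rose were Tex13b (at least 9.04-fold), Nxf2 (at least 4.38-fold, adjusted p = 0.0597 with 4 times the offset), Taf7l (2.12 ± 0.36, adjusted p = 0.0136) and Rhox6. The autosomal ones were Asz1 (2.19 ± 0.50, adjusted p = 0.0409), Slc25a31 (2.00 ± 0.41, adjusted p = 0.0265) and Syce1 (1.69 ± 0.32, adjusted p = 0.0204). Ddx4, the germ cell RNA helicase, fell by 1.88 (SE 0.41, adjusted p = 0.0343). Dazl, an RNA-binding protein of germ cells, read 0.87 ± 0.39 (adjusted p = 0.25), and Sycp3, a component of meiotic chromosomes, -0.84 ± 0.50 (adjusted p = 0.39).

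Genes of the X inactivation centre and the X-linked partners of Y genes lay within the general shift. Xist read 9.07, 9.31 and 9.99 against 8.26, 8.21 and 8.16, higher in all 9 ahES arrays but short of the threshold (1.26 ± 0.32, adjusted p = 0.057). Tsix, its antisense transcript, read 4.83, 6.01 and 6.24 against 4.56, 3.73 and 4.52 (1.48 ± 0.46, adjusted p = 0.10). Rlim, a ubiquitin ligase that activates Xist, rose by 1.35 ± 0.29 (adjusted p = 0.0389), a call lost without AH129-NC1 (adjusted p = 0.0752) and with the mean over probe sets (0.0713). Of 8 X-linked genes with a Y-linked relative, all had every ahES array above CS1-1, and the median was 0.656. Only Sox3, a neural and epiblast factor, passed (1.78 ± 0.36, adjusted p = 0.0243, and 0.0717 without AH129-N1). With the mean over its probe sets Sox3 read 0.97 (adjusted p = 0.15). Kdm6a, a histone demethylase, read 1.07 ± 0.28 (adjusted p = 0.064), Kdm5c 0.56 ± 0.23 (adjusted p = 0.18), Ddx3x 0.37 ± 0.11 (adjusted p = 0.095) and the translation factor gene Eif2s3x 0.52 ± 0.13 (adjusted p = 0.0472, under 2-fold). Of 31 X-linked metabolic genes 7 rose and 0 fell (22.6%, against 33.6% of all X-linked genes), with a median of 0.833, among them Maoa, which degrades monoamines (1.43 ± 0.20, adjusted p = 0.00623), and Ebp, a sterol isomerase (1.53 ± 0.18, adjusted p = 0.00303). Of 35 X-linked chromatin and transcription genes 4 rose and 0 fell (11.4%), with a median of 0.614. In the alternatives 2 to 10 of the metabolic and 1 to 7 of the chromatin genes rose.

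The Y-linked genes Eif2s3y, Uty and Uba1y, whose probe sets respond in R1 arrays of the series, were near background in both kinds of cell. Eif2s3y read 4.63, 5.43 and 5.88 in the ahES arrays against 4.04, 4.44 and 4.20 in CS1-1, and Uty 3.98, 4.88 and 5.31 against 5.18, 4.55 and 4.47. Eif2s3y and Uty were not tested, since no line had all its arrays above the 40th percentile. Uba1y averaged 5.10, 5.23 and 4.48 in AH129-5, AH129-N1 and AH129-NC1 and 4.63 in CS1-1. The R1 arrays were used only to see that these probe sets respond, a check added after seeing the data. Eif2s3y averaged 11.5 in R1, Uty 7.63 and Uba1y 8.08, while 4 of the 7 Y-linked probe sets read in R1 within 0.631 of CS1-1 and so are not informative there. Of those 4, Usp9y and Zfy2 respond in round sperm, at 8.35 and 8.58. They averaged 4.65 and 4.58 in CS1-1, and 4.24 to 5.61 and 3.64 to 4.72 in the ahES lines. Ddx3y was not analysed here, as none of its probe sets carried 1 symbol only.

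Outside the X chromosome the largest rises mixed genes of different tissues. Cd3d, which encodes the CD3 delta subunit of T cells, read 9.80, 10.73 and 11.04 against 5.81, 4.01 and 4.04, a rise of at least 31.1-fold (5.90 ± 0.43, adjusted p = 0.000858). Cd3g, which encodes the gamma subunit, rose as well (2.94 ± 0.45, adjusted p = 0.00903). These were the 2 genes that rose of 6 blood genes tested, where 3.69% of all genes tested rose. Pramel6, a preimplantation factor, rose at least 26.8-fold (5.07 ± 0.65, adjusted p = 0.0165, and 0.0626 without AH129-N1), Cox7b2, a subunit of cytochrome oxidase, at least 16.5-fold (4.99 ± 0.49, adjusted p = 0.00252), and the aldo-keto reductase gene Akr1cl at least 9.92-fold (4.59 ± 0.52, adjusted p = 0.00329). Akr1cl read 2.98 with the mean over its probe sets, and Pramel6 2.65 without probe sets of the _x_at and _s_at types. Pkd2l1, a cation channel, read 9.96, 10.20 and 10.33 against 6.04, 5.51 and 5.83 (4.39 ± 0.25, adjusted p = 0.000131). Adgrg6, an adhesion receptor, read 9.85, 10.12 and 10.21 against 5.54, 6.25 and 5.29 (4.36 ± 0.25, adjusted p = 0.000131). In both genes the ahES arrays varied less among themselves than the CS1-1 arrays did. The CS1-1 means, 5.80 and 5.70, lay just above background (5.44), so the spreads are not measured at like levels. 1700018B24Rik (4.30 ± 0.48, adjusted p = 0.00329) and Pdha2, the testis form of a pyruvate dehydrogenase subunit (3.93 ± 0.40, adjusted p = 0.00188), rose at least 11.4-fold and 5.12-fold.

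Developmental regulators were among the rises. Cdx2, a homeobox factor of trophoblast and posterior epiblast, read 9.09, 9.70 and 10.28 against 6.06, 5.82 and 5.53 (3.93 ± 0.36, adjusted p = 0.00129). Of 18 trophoblast genes tested, 3 rose (Cdx2, Fgfr2 and Plac1) and Krt7 fell, and the median was 0.0777. That is 22.2% called, against 5.47% of all genes tested. Without AH129-N1 the calls of Fgfr2, Plac1 and Krt7 were lost (adjusted p = 0.0793, 0.0918 and 0.102). Fgfr2 read 1.02 (adjusted p = 0.14) with the mean over its probe sets. Hox genes, which specify position along the body axis, had 7 rises and 0 falls among 19 tested (36.8% called, against 5.47% of all genes tested). The median was 1.29 and all 19 were above 0. However, 9 of the 19 were near background in CS1-1 and 0 in ahES cells. Those 9 entered the test through ahES arrays alone, so their direction was set by the filter. Hoxa10 read 7.77, 8.84 and 9.58 against 4.61, 4.18 and 5.16, at least 9.29-fold (SE 0.53, adjusted p = 0.00691), and Hoxc9 7.92, 8.15 and 9.13 against 4.67, 4.54 and 4.93, at least 7.69-fold (3.67 ± 0.41, adjusted p = 0.00264). With the mean over its probe sets Hoxa10 read 1.97 (adjusted p = 0.0525). Hoxa7, Hoxc5, Hoxc8, Hoxc10 and Hoxd9 also rose, whereas 14 of the 33 Hox genes on the array were not tested because they were too dim. In the alternatives 5 to 14 Hox genes rose. All 7 were above background in MEF, with means from 7.13 for Hoxd9 to 8.58 for Hoxa10 and 9.93 for Hoxc8, as was Hoxa9 (9.39). Hoxa10, Hoxc9 and Hoxa7 averaged 8.65, 8.38 and 7.35 in ahES cells, near their MEF means of 8.58, 8.41 and 7.58. Hoxc5 reached at most 7.59 in ahES arrays, below its MEF mean of 8.77. The fibroblast genes described below rose in the same arrays. Of these, Col5a2 and Dcn averaged 11.5 and 10.6 in ahES cells against 14.6 and 12.6 in MEF. The part of fibroblast RNA in the Hox rises was not tested. Hoxa9 had the largest Hox difference, 4.46 ± 1.02, and did not pass (adjusted p = 0.10). Its lines spread from 5.60 in AH129-5 to 4.62 in AH129-N1 and 3.16 in AH129-NC1. Among 15 genes of the primed epiblast 4 rose and 0 fell (26.7% called, against 5.47% of all genes tested), with a median of 0.449. They were Cdh2, encoding N-cadherin (3.16 ± 0.40, adjusted p = 0.00523), Otx2 (2.39 ± 0.42, adjusted p = 0.0174, and 0.0618 without AH129-N1), Sox3 and the DNA methyltransferase gene Dnmt3b (1.13 ± 0.18, adjusted p = 0.0112). Of these, Sox3 is X-linked, and 33.6% of all X-linked genes tested rose. Cdh2 averaged 11.9 in MEF, above its ahES mean of 10.1, while Otx2 and Dnmt3b averaged 3.49 and 6.64 in MEF. Dnmt3a read 1.40 ± 0.35 (adjusted p = 0.054) and Dnmt3l 1.29 ± 0.68 (adjusted p = 0.35). Lefty1 and Lefty2, secreted inhibitors of Nodal, rose by 1.82 ± 0.32 (adjusted p = 0.0172) and 2.05 ± 0.29 (adjusted p = 0.00653), the only 2 of 18 Nodal pathway genes that passed. That is 11.1%, against 5.47% of all genes tested.

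**Figure D3:**
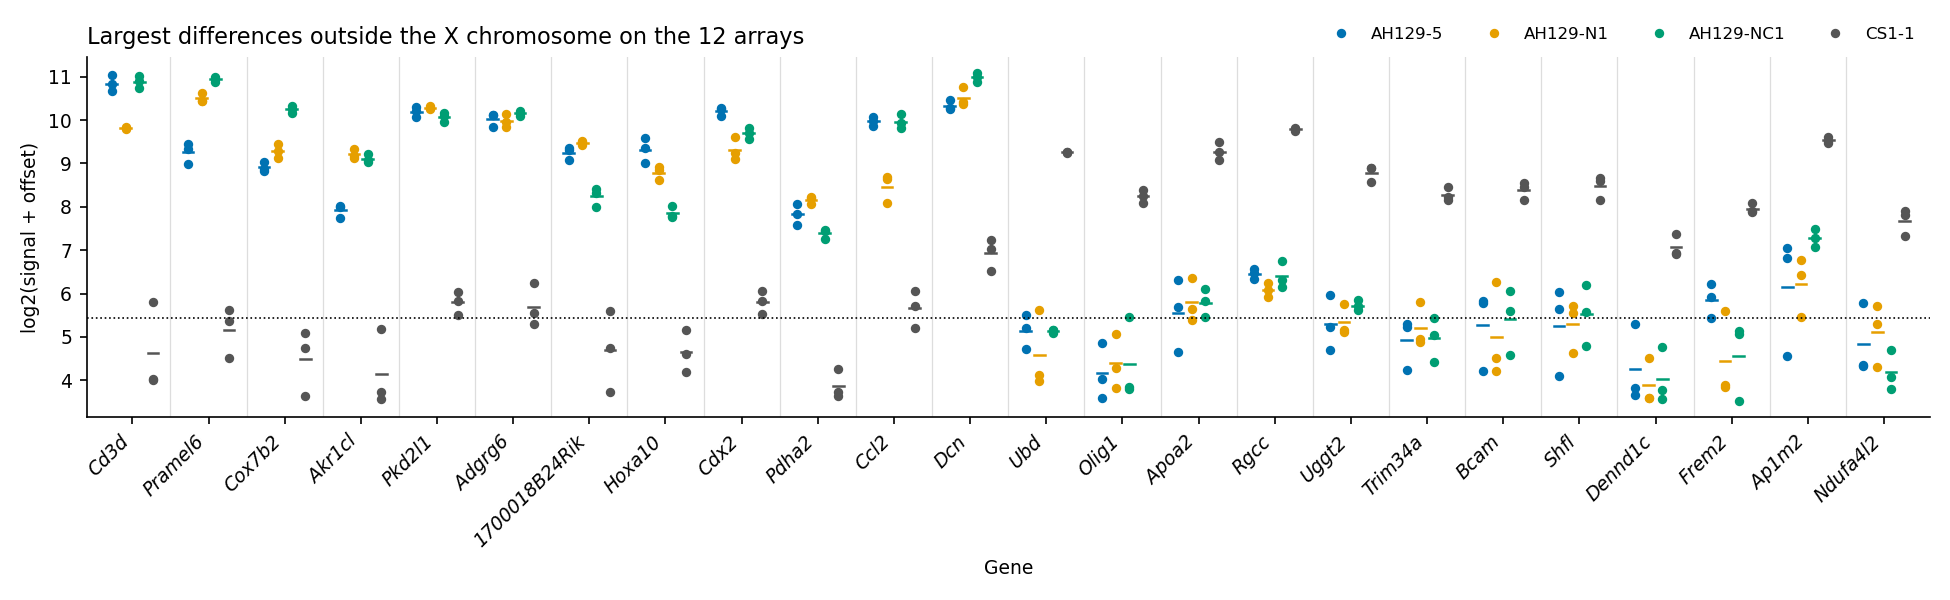
log2(signal + offset) of the 12 largest rises and 12 largest falls outside the X chromosome on each of the 12 arrays. Points are arrays, short bars the mean of each line, and the dotted line is the background level of CS1-1 (5.44). Rises are to the left and falls to the right, and the ahES and CS1-1 points do not overlap in any of the 24 genes.

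Of the 38 gene lists, that of fibroblasts and extracellular matrix held the most rises. Of 36 fibroblast genes tested 24 rose and 0 fell (66.7% called, against 5.47% of all genes tested). Their median was 2.39 against -0.0355 over all genes, and between 19 and 29 rose in the alternatives. Of the 36, 5 were near background in CS1-1 and 0 in ahES cells, so the filter set the direction of those 5. Dcn, a matrix proteoglycan, read 10.26, 10.45 and 11.08 against 7.03, 7.24 and 6.53 (3.68 ± 0.29, adjusted p = 0.000708, and 1.92 with the mean over its probe sets). Col1a2, a chain of collagen I, read 12.61, 12.82 and 13.35 against 9.88, 10.16 and 9.82 (2.97 ± 0.23, adjusted p = 0.000601). Col3a1, Col5a2, Postn and Cdh11 rose by 3.14 ± 0.24 (adjusted p = 0.000601), 3.48 ± 0.23 (adjusted p = 0.000335), 3.56 ± 0.29 (adjusted p = 0.00082) and 3.34 ± 0.37 (adjusted p = 0.00253). The chemokine gene Ccl2 read 8.08, 9.87 and 10.14 against 5.72, 5.22 and 6.06 and was lowest in AH129-N1 (3.80 ± 0.64, adjusted p = 0.0285). The summed signal of the 38 list genes on the array was 15.7 to 16 on the log2 scale in ahES arrays and 14.4 to 14.5 in CS1-1. In bulk RNA, a few cells of another type and a lower level in every cell cannot be told apart.

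The same probe sets were read in the 3 mouse embryonic fibroblast (MEF) arrays, which came from another background, CD1, and were added after seeing the data. Col1a2 averaged 15.0 ± 0.05 (SD, n = 3) there, Prrx1, a mesenchymal factor, 13.3 ± 0.006, and Thy1, a surface marker, 12.9 ± 0.07, against ahES means of 12.9, 7.9 and 7.7. Twist1 averaged 10.0 ± 0.09 in MEF and read 4.81, 5.59 and 6.28 in ahES arrays against 5.57, 5.31 and 4.37 in CS1-1 (0.50 ± 0.48, adjusted p = 0.60). Pdgfrb averaged 13.5 ± 0.22 in MEF and was lower in all ahES arrays than in CS1-1 (-0.67 ± 0.31, adjusted p = 0.24). Of the 319 genes that rose outside the X, 174 (54.5%) were brighter in MEF than in ahES cells, against 43.8% of all genes tested, and 73 (22.9%) were near background in MEF, against 12.8%. The latter included Cd3d (4.81 ± 0.76), Pramel6 (3.56 ± 0.04), Cox7b2 (4.25 ± 1.01), Pkd2l1 (4.26 ± 0.44) and Cdx2 (4.52 ± 0.50). The part of fibroblast RNA in the rises of the matrix genes was not tested.

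**Figure D4:**
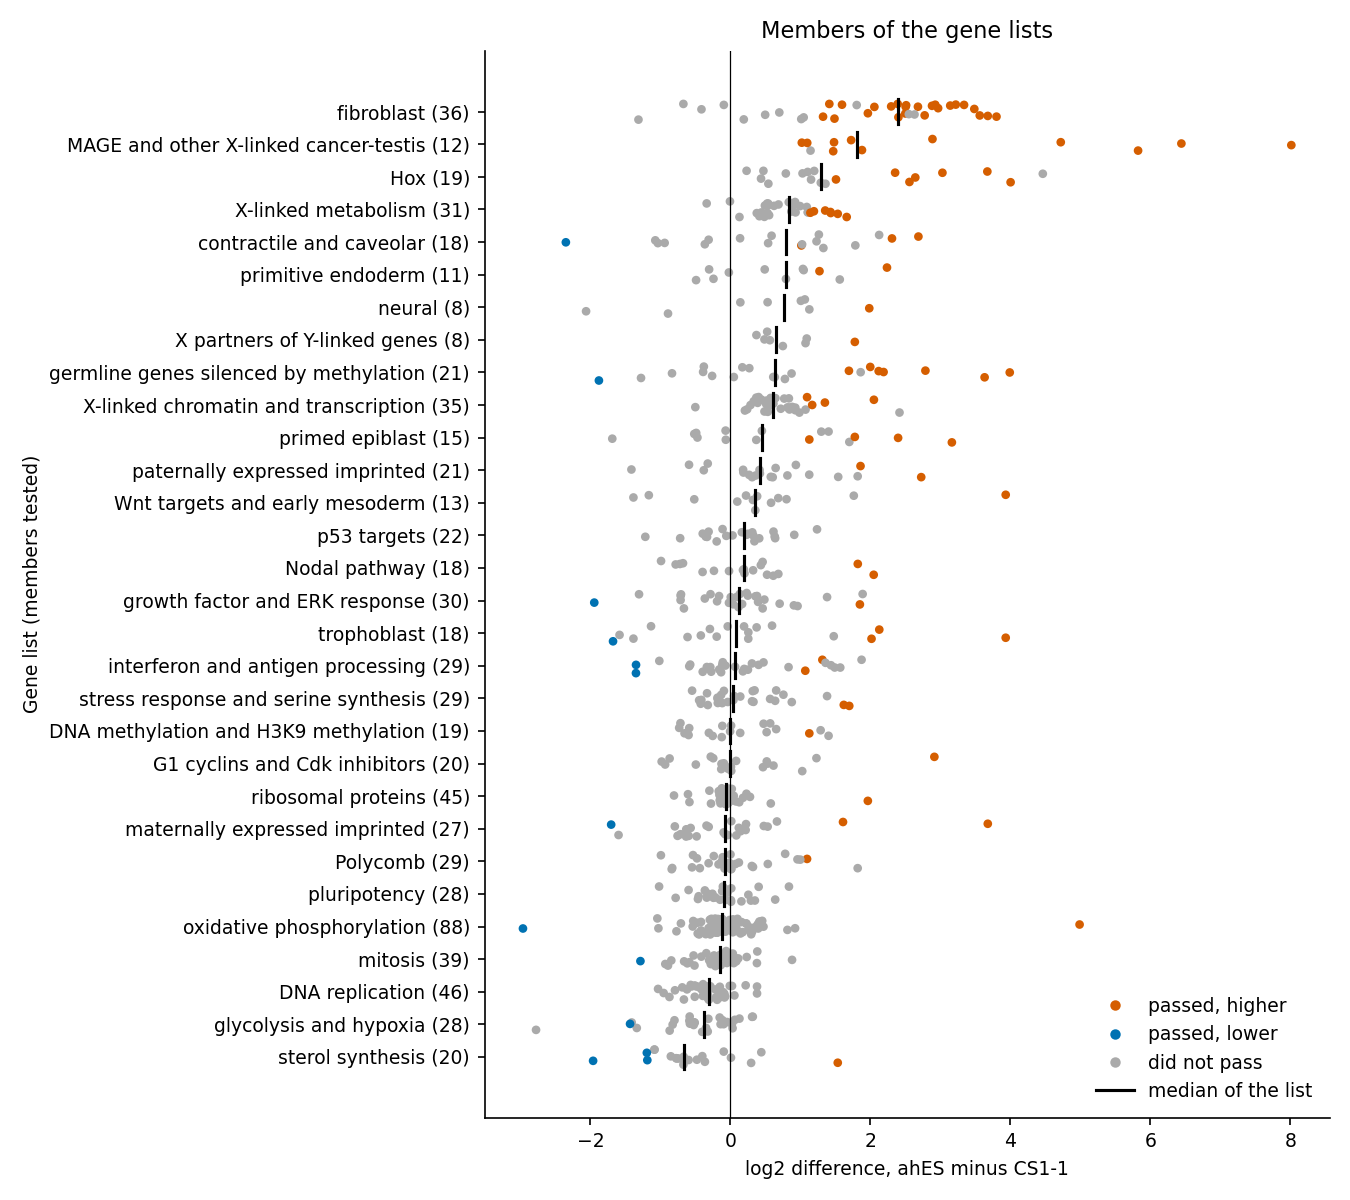
log2 difference, ahES minus CS1-1, of each tested member of the gene lists with at least 8 members tested, ordered by the list's median (black bar). Orange and blue points passed as higher or lower and grey points did not, and points are spread vertically for legibility only. Of the lists shown, the fibroblast list has the highest median (2.39) and the sterol synthesis list the lowest (-0.67).

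The falls were led by genes at or near background in ahES cells. Ubd, a ubiquitin-like protein induced by cytokines, read 3.99, 5.15 and 5.61 against 9.26, 9.27 and 9.25, at least 13.4-fold lower (-4.31 ± 0.43, adjusted p = 0.00166). Olig1, a neural bHLH factor, was at least 6.64-fold lower (-3.93 ± 0.46, adjusted p = 0.00317). Apoa2, an apolipoprotein, read 4.65, 5.68 and 6.36 against 9.08, 9.49 and 9.25 (-3.56 ± 0.35, adjusted p = 0.00166), and Rgcc, a regulator of the cell cycle, 5.92, 6.32 and 6.76 against 9.74, 9.78 and 9.83 (-3.47 ± 0.34, adjusted p = 0.00166). Uggt2, a glycoprotein folding sensor, Trim34a, the adhesion molecule gene Bcam, the antiviral gene Shfl, Dennd1c, Frem2 and Ndufa4l2 were in the main comparison lower by at least 8.71, 6.72, 6.36, 6.89, 2.97, 5.00 and 4.38-fold in that order. Ap1m2, an epithelial clathrin adaptor, read 4.57, 6.81 and 7.49 against 9.61, 9.48 and 9.52 (-2.99 ± 0.48, adjusted p = 0.0116, and 0.0697 with the line as a random block). The call of Frem2 was lost without AH129-N1 (adjusted p = 0.072). Trim34a read -1.93 with the mean over its probe sets and did not pass (adjusted p = 0.0638). Epas1, the hypoxia-responsive factor, read 7.32, 8.51 and 9.56 against 11.34, 11.28 and 11.28 and did not pass (-2.78 ± 0.76, adjusted p = 0.12), and its line differences spread from -3.75 to -1.82.

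Bcam, Ap1m2 and other falls are genes of epithelia, and a list of 37 epithelial genes was put together after this had been seen, so its count supports nothing by itself. Of the 37, 12 fell and 0 rose, with a median of -1.31, beside 1.78% that fell over all genes. Among the ahES lines 14 of the 37 differed, where 9.13% of all genes tested did. Cldn7, a tight junction claudin, read 5.85, 6.48 and 7.63 against 9.39, 9.47 and 9.41 (-2.76 ± 0.54, adjusted p = 0.0258), and Mapk13 4.74, 5.88 and 7.18 against 8.53, 8.60 and 8.39 (-2.59 ± 0.38, adjusted p = 0.00777). In MEF Cldn7 was near background (4.94), whereas Mapk13 averaged 8.60, about its level in CS1-1, so it is not particular to epithelia. Likewise Krt7, which also fell, averaged 7.69 in MEF and 7.66 in CS1-1. Spint2, a membrane protease inhibitor, and Dsp, encoding desmoplakin, fell by 1.60 (SE 0.25, adjusted p = 0.0106) and 1.68 (SE 0.29, adjusted p = 0.0148). Cdh1, encoding E-cadherin, read -0.33 ± 0.19 (adjusted p = 0.35). Grhl2, an epithelial transcription factor, and Cldn3, a claudin, were above CS1-1 in all 9 ahES arrays without passing (1.70 ± 0.43, adjusted p = 0.066, and 0.96 ± 0.40, adjusted p = 0.19), and Esrp2, Rab25 and Tmprss2 also read above 0. Krt8 and Krt18, paired keratins, went in opposite directions in different lines, at 2.05 and 2.39 in AH129-5 and -0.94 and -0.91 in AH129-N1.

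Among imprinted genes 5 calls were made. Of 21 paternally expressed genes tested 2 rose and 0 fell (9.52% called, median 0.42), and of 27 maternally expressed genes 2 rose and 1 fell (11.1%, median -0.0756), beside 5.47% called over all genes. Ndn, a paternally expressed MAGE-family gene, read 10.22, 10.35 and 10.54 against 7.79, 7.46 and 7.68 (2.72 ± 0.24, adjusted p = 0.00105, and 1.60 with the mean over its probe sets). Igf2, a paternally expressed growth factor, read 9.06, 9.51 and 10.40 against 7.67, 7.83 and 7.88 (1.86 ± 0.39, adjusted p = 0.0321). With the mean over its probe sets the difference of Igf2 was 0.91 (adjusted p = 0.13). Both genes are also far above background in MEF. So are Dcn and Grb10, at 12.6 and 13.6 in MEF against 10.6 and 10.2 in ahES cells. Dcn and Grb10, on the maternal list, rose, the latter by 1.61 ± 0.26 (adjusted p = 0.0112), and Ppp1r9a fell by 1.70 (SE 0.34, adjusted p = 0.0246, and 0.0505 without AH129-N1). With the mean over probe sets neither Grb10 (0.77, adjusted p = 0.17) nor Ppp1r9a (-1.07, adjusted p = 0.17) passed. Peg3 read -0.59 ± 0.40 (adjusted p = 0.45), Meg3 -0.63 ± 0.18 (adjusted p = 0.082), Cdkn1c 0.53 ± 0.45 (adjusted p = 0.55) and Phlda2 -0.79 ± 0.53 (adjusted p = 0.44). Meg3 was lower in all 9 ahES arrays, at 11.98, 12.34 and 12.65 against 12.98, 12.99 and 12.94. H19 was not analysed here for the same reason as Ddx3y.

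Genes of DNA replication and mitosis were read because the labels state a G0/G1 selection for the haploid cells and mention none for CS1-1. Of 46 replication genes tested 0 rose and 0 fell (limma), with a median of -0.31, and in 22 of them all ahES arrays lay below CS1-1, against the 20.4% of all genes. Of 39 mitosis genes only Bora, an activator of Aurora A, fell (-1.29 ± 0.23, adjusted p = 0.0162), and the median was -0.148. That is 2.56% called, against 5.47% of all genes tested. The G1 cyclin gene Ccnd2 read 9.10, 9.72 and 9.85 against 6.58, 6.94 and 6.60 (2.91 ± 0.28, adjusted p = 0.00152) and was the only one of 20 G1 cyclins and Cdk inhibitors to pass. That is 5% of those tested. Ccnd2 too is bright in MEF, at 14.2. The part of the sort in these differences was not tested. In sterol synthesis, 3 of 20 genes fell, namely Tm7sf2 (-1.96 ± 0.40, adjusted p = 0.029), Msmo1 (-1.19 ± 0.22, adjusted p = 0.0172) and Pmvk (-1.19 ± 0.26, adjusted p = 0.0324), while the X-linked Ebp rose. Of this list 20% was called, against 5.47% of all genes tested, and the median was -0.67. The calls of Tm7sf2 and Pmvk were lost without AH129-N1 (adjusted p = 0.09 and 0.0527), and that of Pmvk also without AH129-NC1 (0.0506). With its probe sets averaged, Msmo1 read -0.89 and did not pass (adjusted p = 0.11). Of 30 growth factor response genes tested 1 rose and 1 fell (6.67% called, near the 5.47% of all genes tested), with a median of 0.124. Fos, an immediate early gene of growth factor signalling, fell by 1.95 (SE 0.21, adjusted p = 0.00225). Ier5 rose by 1.85 ± 0.31 (adjusted p = 0.0133), and with the mean over its probe sets it read 0.98 (adjusted p = 0.16). Pdk1, a pyruvate dehydrogenase kinase, fell by 1.43 (SE 0.23, adjusted p = 0.0113). Of 88 oxidative phosphorylation genes 1 rose (Cox7b2) and 1 fell (Ndufa4l2), and of 45 ribosomal protein genes 1 rose, Rpl39l (1.96 ± 0.23, adjusted p = 0.00303). These are 2.27% and 2.22% called.

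The ahES lines were not interchangeable. Across the 9 arrays 1164 genes (9.13% of those tested) differed among the lines by at least 2-fold (limma F-test over arrays, adjusted p under 0.05), and 63 of the 697 genes that differed from CS1-1 (9.04%) were among them. The targets of p53, the DNA damage response factor, held the most such genes of the 38 lists, and the list was picked out after its values were seen. None of 22 tested passed between ahES cells as a group and CS1-1 (limma), while 18 of them differed among the ahES lines. The median over the list was -0.855 in AH129-5, 0.438 in AH129-N1 and 1.11 in AH129-NC1, with CS1-1 at 0 by construction. Cdkn1a, the p21 inhibitor of the cell cycle, read -0.86, 1.00 and 1.70 in that order, Ccng1, a cyclin, -2.06, 0.50 and 1.22, and Mdm2, the ubiquitin ligase for p53, -0.34, 0.37 and 1.00. Eda2r, an X-linked death receptor, had the widest range, -3.18, 1.74 and 2.42. Rrm2b, a ribonucleotide reductase subunit, did not differ among the lines and read -1.37, -0.86 and -1.41.

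**Figure D5:**
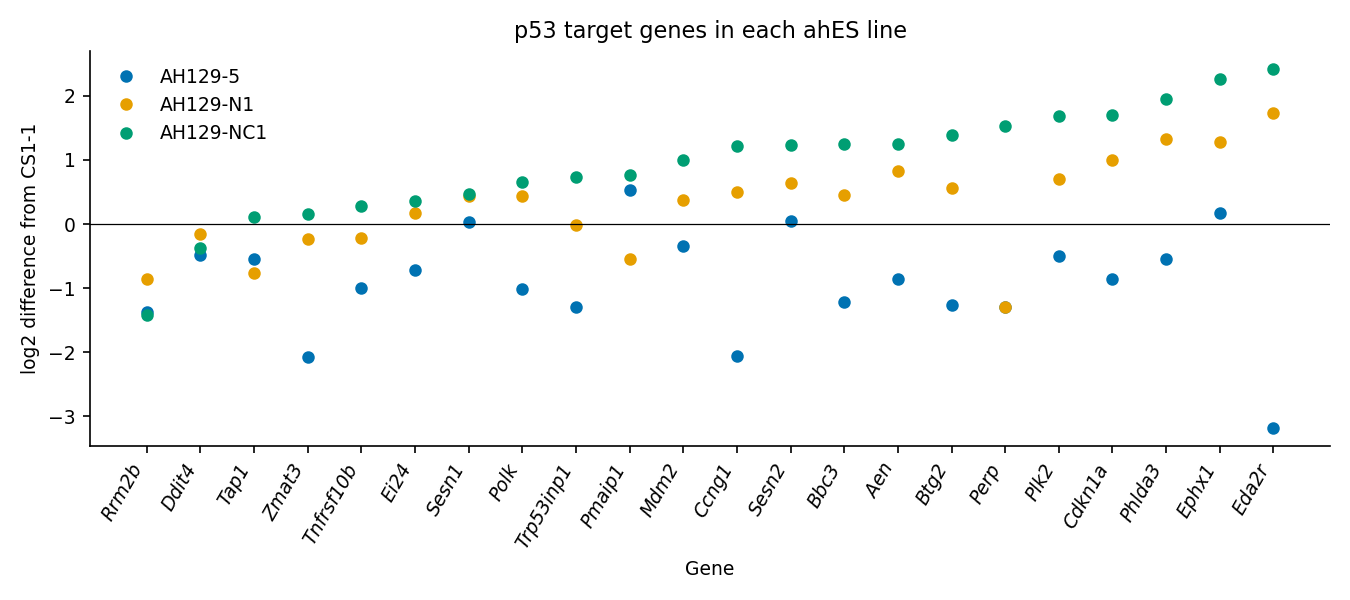
log2 difference from CS1-1 of 22 p53 target genes in each ahES line, one point per line mean of 3 arrays, ordered by the value in AH129-NC1. AH129-5 lies lowest in most genes and AH129-NC1 highest, with the widest separation in Eda2r (-3.18 to 2.42).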

How the data were processed

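Total RNA of the 12 arrays was labelled and hybridised to Affymetrix 3' expression arrays per the labels' protocols. The deposited values were log2 MAS5 signals, 1 per probe set and array for 45101 probe sets; per the submitters' processing notes MAS5 was used, with no version stated. Base 2 was taken from the values, whose 2% trimmed mean on the linear scale is 500 on every array. Detection calls were not used, and the number of arrays limits the precision.

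Of the probe sets, 64 were controls, 34945 carried 1 gene symbol, 932 several and 9160 none, by the platform annotation with names and chromosomes from RefSeq (GRCm38.p6). Where a gene had several probe sets, the brightest on average over the 12 arrays was kept. For the offset of 9.69, the 20th percentile of each array was taken and the median used, and genes were tested where all 3 arrays of at least 1 line exceeded their array's 40th percentile. R 4.3.3 with limma 3.58.1 and statmod 1.5.0 fitted the line means, using trend and robust moderation and 2-sided tests. Errors of differences are SE. The labels do not say that replicates came from separate cultures, so differences among lines are set against a spread that may be technical. Arrays sharing a replicate number did not deviate together (correlations -0.0494 to 0.0379 over 18 pairs), so the numbers were not used as pairs.

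On simulated data with the 12749 genes, 76.1%, 79.1% and 100% of genes changed by 1.5, 2 and 3 on the log2 scale were recovered, and 12.4% of the calls were unchanged genes, above the nominal 5%. The changed genes numbered 67, 67 and 66, and every ahES line got the same change. CS1-1 was made to vary like the ahES lines, so that assumption was not tested and the rates need not hold for the 697 calls. In 28 alternatives the offset, filter, scaling, probe set rule, model and arrays were changed. The named genes were, by rule, the 12 largest rises and falls outside the X, the 8 largest X-linked rises, up to 4 called members of each of 38 lists with the smallest adjusted p (all where 5 or fewer were called) and a set of key genes, and others are identified in the text or given as members of a list. The comparison, the lists and the rule were chosen with earlier results of these data known. Promoters are from a RefSeq table (GRCm38.p6).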

Additional observations from a re-analysis of the deposited data

Results flagged for a closer look

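Named genes whose difference from CS1-1 was not shared equally by the ahES lines are given by the range between the 3 ahES line means, each with an F-test over the 9 arrays past the threshold. On the X chromosome the ranges were 1.73 for Nxf2, 1.41 for Tex13b, 1.35 for Rhox13, 1.34 for Rhox6, 1.33 for Magea6, 1.14 for Plac1 and 1.10 for Magea5. Outside it they were 1.68 for Pramel6, 1.51 for Ccl2, 1.47 for Spesp1, 1.45 for Hoxa10, 1.33 for Cox7b2, 1.29 for Akr1cl, 1.26 for Myl9, 1.24 for 1700018B24Rik, 1.14 for Cd3g, 1.13 for Otx2, 1.08 for Tm7sf2 and 1.07 for Cd3d. In each of these 19 genes all 3 lines lay on the same side of CS1-1.

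In the R1 arrays, which no comparison used, Y-linked probe sets exceeded CS1-1 by 7.26 for Eif2s3y, 3.45 for Uba1y and 2.89 for Uty. The other 4 read 0.631 for Zfy2, 0.115 for Kdm5d, -0.131 for Usp9y and -0.381 for Sry relative to CS1-1.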

How the results depend on the processing

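Over 28 alternatives no named gene that passed in the main run or in the alternative changed direction. Sign changes of named genes that passed in neither, such as those near 0, were not counted. Between 382 and 1746 genes passed. With every array as a unit, 1746 genes passed (1033 higher, 713 lower), and with the replicate block 1745 (1034 and 711), so the block changed the count by 1. With the line as a random block 1107 passed (420 lower). Without trend and robust moderation 382 passed (278 higher, 104 lower), without AH129-5 1134 (491 lower) and without AH129-N1 404 (86 lower); the cause was not tested. The lower genes numbered 341 after median centring and 143 with the mean over probe sets. The share of calls that were higher, 67.4%, ran from 56.7% without AH129-5 to 78.7% without AH129-N1. Leaving out each array in turn gave 650 to 763 genes. Leaving out an array, the X gap was 0.981 to 1.02. It was 1.04 with no offset, 0.918 with 4 times the offset, 1.05 with the filter at the 60th percentile, 0.761 with no filter, 0.937 with the mean over probe sets, 1.02 without AH129-5, and 0.932 without X-linked genes above 2 (chosen after seeing the data). Of the 92 named genes that passed, 33 were lost without trend and robust moderation, 21 without AH129-N1, 17 with the mean over probe sets, 9 without AH129-NC1, 0 without AH129-5 and 0 to 3 per array left out. With 4 times the offset, Magea6 read 3.05 (7.37 with none), Pdha2 2.52 and Dennd1c -1.81. Genes named outside the rule were read in the main comparison only. The single diploid line limits every call, and signals near background limit the size of the falls.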

Other observations

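Windows of 25 neighbouring tested genes were scanned after the data had been seen, and the following are extremes picked from all 11795 autosomal and 426 X windows, with no test. Medians ran from -0.952 to 0.818 over the autosomal windows and from 0.547 to 1.76 over the X windows, so no X window had a median at or below 0. The X window with the most rises ran from Gm715 to Xlr4c, with 18 of 25 genes higher, among them Sox3, Fmr1nb, Hmgb3, Magea4 and Xlr4c. The autosomal window with the most rises lay on chromosome 15, from Pcbp2 to Ppp1r1a, where 8 genes rose, namely Hoxc10, Hoxc9, Hoxc8, Hoxc5, Nfe2, Gtsf1, Nckap1l and Ppp1r1a. The one with the most falls lay on chromosome 14, from Pibf1 to Gm16835, where 5 genes fell. Of these, Uggt2 read -3.48, -3.44 and -3.06 in AH129-5, AH129-N1 and AH129-NC1, Klf12 -2.52, -2.56 and -2.04, and Tgds -2.17, -1.90 and -2.44, so the lines gave like values.

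Among genes used as markers of the 2-cell stage, 2 of 5 tested rose, Usp17la (2.45 ± 0.35, limma adjusted p = 0.00684) and Spesp1 (2.70 ± 0.55, adjusted p = 0.0297), and the latter call was lost without AH129-N1 (adjusted p = 0.0941). The 2 rises are 40% of that list, against 3.69% of all genes tested. Of its 5 genes, 3 were near background in CS1-1 and 0 in ahES cells, so the filter set the direction of those 3. Interferon and antigen processing genes were mixed. Of 29 tested, Oas1a and B2m rose and Bst2 and Tapbp fell (13.8% called, against 5.47% of all genes tested). Of the 29, 13 differed among the ahES lines, where 9.13% of all genes tested did. The calls of Oas1a and Tapbp were lost without AH129-N1 (adjusted p = 0.0645 and 0.0554), and that of B2m without AH129-NC1 (0.0848).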
